A study of Mus musculus with 6 samples.

Results

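The straight part of the proximal tubule, its last segment or S3, was followed through 6 genes that are enriched in it: *Slc7a13*, *Cyp7b1*, *Atp11a*, *Rnf24*, *Kap* and *Acy3*. They are 6 of the 54532 genes in the table, and they were selected by name with the difference between these same libraries already known. Whole kidneys were compared between Control mice, which carried KsprtTA alone, and KSPAPN mice, which carried KsprtTA and TRE-adiponectin and so made adiponectin in renal epithelium when given doxycycline. Both groups were C57BL/6 males that received doxycycline at 600 mg/kg chow for 4 days, their age was not given, and the labels call the Control genotype WT. The Ksp promoter drives rtTA in epithelium all along the nephron, so that the transgene is not limited to S3. Each group had 3 libraries and each library was a pool of 3 mice, so that the spread given is a spread between pools. The comparison asks how gene expression in the kidney in vivo differs when renal epithelium makes adiponectin. The paper reports that serum adiponectin also rose in KSPAPN mice, measured after a longer doxycycline treatment. Effects of local and of circulating adiponectin therefore cannot be told apart here.

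The proximal tubule reclaims most of the filtered glucose, amino acids and phosphate, and its segments divide this work. S1 and S2 lie in the cortex and carry high-capacity transport. S3 runs down into the outer medulla, takes up what the earlier segments left, and holds much of the tubule's glutathione breakdown and detoxification. In mice many S3 genes are under androgen control and are higher in males, and S3 is the segment most easily injured by lack of oxygen.

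*Adipoq*, the gene for adiponectin, had 2, 0 and 2 counts in the Control libraries and 24629, 17483 and 26811 in the KSPAPN libraries, so that the libraries match their labels. The libraries held 17183358 to 18205023 counts on genes in Control and 18150442 to 20871173 in KSPAPN. The labels give kidney as the tissue but speak of liver in the text on extraction, and *Alb*, the defining transcript of hepatocytes, was at 0.275 to 4.46 FPKM in the 6 libraries. The 5 hepatocyte markers summed to 78.3 to 160 FPKM in Control and 52.0 to 80.8 FPKM in KSPAPN. Most of this was *Ttr*, the transthyretin gene, which fell from 128, 145 and 69.6 FPKM to 50.3, 63.4 and 38.3 FPKM (log2 fold change -1.17 ± 0.25, edgeR adjusted p = 0.0388), and *Apob* was at 7.40 to 12.9 FPKM. *Xist* had 1 to 10 counts and *Ddx3y* 837 to 1295 counts in every library.

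All 6 genes had a lower fitted level in KSPAPN, and they fell into 2 ranges of size. *Cyp7b1*, *Slc7a13* and *Rnf24* were between 2.30-fold and 4.28-fold lower, and *Acy3*, *Atp11a* and *Kap* were between 1.24-fold and 1.33-fold lower. The median log2 fold change of the 6 was -0.81, against 0.012 over the 16017 genes tested. By edgeR's quasi-likelihood test 3 of the 6 passed the threshold of an adjusted p of 0.05, all lower, where 2.25% of all genes tested were called lower and 0.393% higher. In 5 of the 6 every KSPAPN library lay below every Control library, which held for 13.1% of all genes tested, while 11.4% lay wholly above. Since the genes were chosen with this contrast in view, their counts describe them and carry no test. In whole kidney, fewer S3 cells and less RNA of these genes per cell cannot be told apart.

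**Figure D1:**
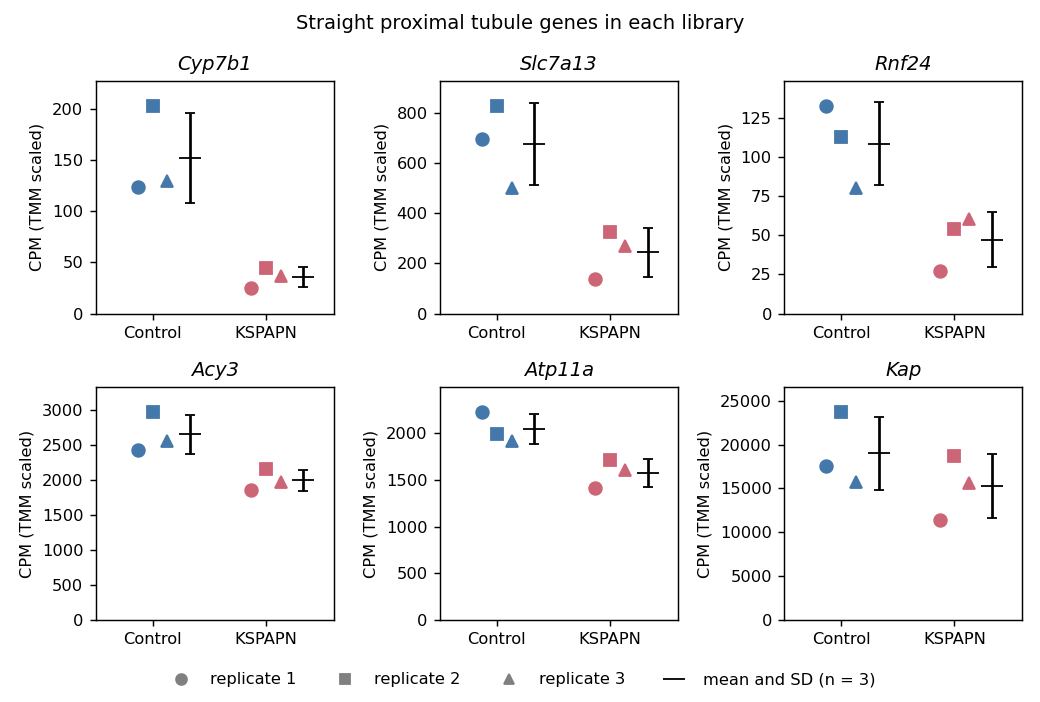
Read counts scaled to library size with TMM factors (CPM, vertical axis from 0) of the 6 genes in each of the 3 Control and 3 KSPAPN libraries, with the mean and SD of each group beside the points. The groups are apart for every gene except *Kap*, and KSPAPN replicate 1, the circle, is the lowest KSPAPN library in all 6 panels.

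The transporter and the enzymes that changed most were described first. *Slc7a13* (chr4:19818725-19842218, plus strand, GRCm38) encodes AGT1, an exchanger of cystine, aspartate and glutamate on the luminal side of S3 cells. In counts scaled to library size (CPM) it was at 695, 828 and 502 CPM in Control replicates 1 to 3, and at 138, 327 and 271 CPM in KSPAPN. The highest KSPAPN library reached 0.651 of the lowest Control library, and the log2 fold change was -1.46 ± 0.28 (SE). Its partner subunit is rBAT, the product of *Slc3a1*, which S3 shares with the cystine carrier encoded by *Slc7a9* in earlier segments. *Slc3a1* was at 432, 421 and 350 CPM in Control and at 283, 339 and 312 CPM in KSPAPN, with no overlap, but its log2 fold change of -0.36 ± 0.11 did not pass (edgeR adjusted p = 0.114). *Slc7a9* was at -0.38 ± 0.15 (adjusted p = 0.196) and *Slc3a2*, the heavy chain of the basolateral exchangers, at -0.36 ± 0.12 (adjusted p = 0.153). Within each library the FPKM of *Slc7a13* over that of *Slc3a1* was 1.73, 2.12 and 1.55 in Control and 0.523, 1.04 and 0.937 in KSPAPN. The transporter was thus the more abundant of the pair per length in all 3 Control libraries and in 1 of the KSPAPN libraries.

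*Cyp7b1* (chr3:18071950-18243338, minus strand) encodes oxysterol 7-alpha-hydroxylase, which acts on side-chain oxysterols and on steroids such as dehydroepiandrosterone. It was at 124, 203 and 130 CPM in Control and at 25.3, 44.3 and 37.3 CPM in KSPAPN. Its highest KSPAPN library was at 0.358 of its lowest Control library, the widest gap among the 6, and its log2 fold change was -2.10 ± 0.23. By this value it ranked 29th from the bottom among the 12248 genes with a mean of at least 1 FPKM, where *Slc7a13* ranked 65th and *Rnf24* 114th. Other genes of oxysterol and bile acid synthesis were level or hardly expressed. *Cyp27a1*, the sterol 27-hydroxylase, had a log2 fold change of 0.12 ± 0.13 (adjusted p = 0.668). *Cyp46a1*, the 24-hydroxylase, was at 0.24 ± 0.31 (adjusted p = 0.735) and *Ch25h*, the 25-hydroxylase, at -0.01 ± 0.47 (adjusted p = 0.996), both with a mean of about 1 FPKM or less. *Hsd3b7*, which acts after *Cyp7b1*, was too low to be tested.

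*Rnf24* (chr2:131298064-131352892, minus strand) encodes a membrane RING finger protein that binds TRPC channels. It was at 132, 112 and 79.9 CPM in Control and at 27.2, 53.7 and 60.5 CPM in KSPAPN, and its log2 fold change was -1.20 ± 0.26. Control replicate 3 came closest to the KSPAPN libraries, of which the highest reached 0.757 of it. *Rnf24* shares 1125 exonic bases with *Pank2* on the opposite strand, and the strandedness of the counts is not given in the sources used here. *Pank2*, a pantothenate kinase, was at 32.2, 39.3 and 32.1 CPM in Control and at 36.3, 33.3 and 31.7 CPM in KSPAPN, a log2 fold change of -0.03 ± 0.12 (adjusted p = 0.915).

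*Acy3* (chr19:3986570-3990007, plus strand) encodes aminoacylase 3, which removes the acetyl group from mercapturic acids and from N-acetylated aromatic amino acids. It was at 2428, 2965 and 2560 CPM in Control and at 1847, 2155 and 1965 CPM in KSPAPN. The groups were apart by a narrow margin, with a log2 fold change of -0.41 ± 0.12. Mercapturic acids are made from glutathione conjugates in successive steps, and their genes did not move alike. *Ggt1*, the gamma-glutamyltransferase that starts the breakdown, fell from 1275, 1438 and 1177 CPM to 817, 1012 and 884 CPM (log2 fold change -0.52 ± 0.12, adjusted p = 0.0483). *Dpep1*, the dipeptidase of the next step, was at 0.16 ± 0.12 (adjusted p = 0.512). *Nat8*, which adds the acetyl group and has close relatives in the genome that could share its reads, fell from 188, 210 and 159 CPM to 84.6, 118 and 114 CPM (-0.82 ± 0.14, adjusted p = 0.0197).

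Both other aminoacylases listed fell further than the fitted value of *Acy3*. *Acy1*, which acts on N-acetylated aliphatic amino acids, was at 166, 148 and 175 CPM in Control and at 87.1, 107 and 119 CPM in KSPAPN (-0.64 ± 0.12, adjusted p = 0.0259). *Aspa*, or aminoacylase 2, which splits N-acetylaspartate, was at 101, 109 and 88.3 CPM in Control and at 32.4, 57.4 and 61.1 CPM in KSPAPN (-0.98 ± 0.20, adjusted p = 0.0322). The difference between the 3 aminoacylase genes was not tested.

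*Atp11a* (chr8:12757014-12868728, plus strand) encodes a P4-type ATPase that flips phosphatidylserine and phosphatidylethanolamine to the inner leaflet of the plasma membrane. It was at 2229, 1995 and 1919 CPM in Control and at 1409, 1712 and 1604 CPM in KSPAPN, with a log2 fold change of -0.38 ± 0.11. Its CV over the libraries was 7.88% in Control and 9.75% in KSPAPN, and that of *Acy3* was 10.6% and 7.81%, while the other 4 genes varied by at least 21.9% in both groups. The related flippase *Atp11b* had a positive value that did not pass, 0.27 ± 0.08 (adjusted p = 0.123). *Tmem30a*, the chaperone that *Atp11a* needs, was at 0.15 ± 0.12 (adjusted p = 0.523). *Atp11a* shares 172 exonic bases with an antisense gene, *Gm15347*, that had 135 to 298 counts, against at least 30637 counts on *Atp11a* itself.

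*Kap* (chr6:133849851-133853762, minus strand), the kidney androgen-regulated protein gene, is a classic androgen-responsive transcript of the mouse proximal tubule. It was the most abundant protein-coding gene by FPKM in both groups. It took 1.56% to 2.23% of all counts in Control and 1.22% to 1.85% in KSPAPN. It was at 17557, 23709 and 15757 CPM in Control and at 11431, 18725 and 15670 CPM in KSPAPN. The groups overlapped, since KSPAPN replicate 2 stood above Control replicates 1 and 3, and the log2 fold change was -0.32 ± 0.21. *Kap* and *Acy3* kept a like ratio of FPKM, at 15.4, 17.0 and 13.1 in Control and 13.2, 18.5 and 17.0 in KSPAPN, with overlap.

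The start sites of 4 of the 6 genes were matched to RefSeq promoter windows (GRCm38.p6, 300 bases around the start), and 3 are shown because they set 2 genes with a TATA motif against 1 without. *Kap* (chr6:133853618-133853917, minus strand) and *Acy3* (chr19:3986320-3986619, plus strand) each held one TATAAA, in capitals, 31 and 30 bases before the RefSeq start. The gene span given above for *Kap* starts further upstream, inside this window, so that its TATAAA lies within that span. *Rnf24* (chr2:131352843-131353142, minus strand) held none.
Kap: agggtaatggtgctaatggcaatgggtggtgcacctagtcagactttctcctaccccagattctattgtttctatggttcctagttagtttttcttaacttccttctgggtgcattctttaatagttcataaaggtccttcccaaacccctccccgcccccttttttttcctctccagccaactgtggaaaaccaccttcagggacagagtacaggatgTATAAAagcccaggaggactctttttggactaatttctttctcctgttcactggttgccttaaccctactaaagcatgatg
Acy3: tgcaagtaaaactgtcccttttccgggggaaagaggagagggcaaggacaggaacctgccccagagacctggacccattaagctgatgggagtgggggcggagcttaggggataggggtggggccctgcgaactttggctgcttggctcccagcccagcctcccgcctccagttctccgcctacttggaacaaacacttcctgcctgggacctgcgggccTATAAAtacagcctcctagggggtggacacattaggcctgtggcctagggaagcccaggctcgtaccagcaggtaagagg
Rnf24: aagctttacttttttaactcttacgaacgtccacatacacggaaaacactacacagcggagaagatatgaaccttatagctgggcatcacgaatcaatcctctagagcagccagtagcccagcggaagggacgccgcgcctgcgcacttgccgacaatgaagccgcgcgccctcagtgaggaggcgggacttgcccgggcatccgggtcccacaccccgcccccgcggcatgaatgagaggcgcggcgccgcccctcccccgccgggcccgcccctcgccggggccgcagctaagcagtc
TATAAA occurred on either strand in 13.6% of 32851 promoter windows of this length. The window of *Atp11a* held none either and was the richest in G and C, at 76.0%, with 63.7% for *Rnf24*, 60.3% for *Acy3* and 44.7% for *Kap*. The letters AGGTCA, a nuclear receptor half-site, were in none of the 4 windows on either strand, and in 16.3% of all windows. AGAACA and GTTAAT, the other letters searched for, were in none of the 4 either, and in 19.0% and 7.10% of all windows. Such matches describe letters only.

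Per length, the order of the genes in Control was *Kap* (26157 ± 5773 FPKM, SD, n = 3), *Acy3* (1713 ± 182), *Slc7a13* (307 ± 75.0), *Atp11a* (179 ± 14.4), *Cyp7b1* (68.3 ± 19.9) and *Rnf24* (15.5 ± 3.82). No neighbours in this order overlapped between their libraries. In KSPAPN the means were 20971 ± 5249 FPKM for *Kap*, 1281 ± 114 for *Acy3*, 137 ± 14.9 for *Atp11a*, 111 ± 45.1 for *Slc7a13*, 16.0 ± 4.47 for *Cyp7b1* and 6.73 ± 2.55 for *Rnf24*. *Slc7a13* and *Atp11a* had changed places, and their libraries now overlapped, at 61.5 to 149 and 121 to 150 FPKM. Within libraries *Slc7a13* was 1.62, 2.16 and 1.36 times *Atp11a* in Control and 0.508, 0.994 and 0.879 times in KSPAPN. *Cyp7b1* was 2.94, 5.67 and 5.10 times *Rnf24* in Control and 2.91, 2.59 and 1.94 times in KSPAPN, so that Control replicate 1 lay just above the highest KSPAPN value on this ratio and the other Control libraries lay well above it. Among protein-coding genes *Cyp7b1* went from rank 698 by FPKM to rank 2783, and *Slc7a13* from rank 93 to 318.

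The 6 genes shared their lowest library in KSPAPN but not in Control. KSPAPN replicate 1 was the lowest KSPAPN library for all 6 genes, and KSPAPN replicate 2 was the highest for 5 of them. In Control, replicate 2 was the highest for 4 genes and replicate 3 the lowest for 4. Without KSPAPN replicate 1 the log2 fold changes were -1.88 for *Cyp7b1*, -1.16 for *Slc7a13*, -0.90 for *Rnf24*, -0.34 for *Acy3*, -0.28 for *Atp11a* and -0.13 for *Kap*. Across the 6 libraries the Pearson r of log2 CPM was 0.978 between *Cyp7b1* and *Acy3*, 0.970 between *Slc7a13* and *Rnf24* and 0.965 between *Atp11a* and *Rnf24*, and lowest, at 0.693, between *Atp11a* and *Kap*. These correlations over 6 libraries contain the difference between the groups and are descriptions.

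**Figure D2:**
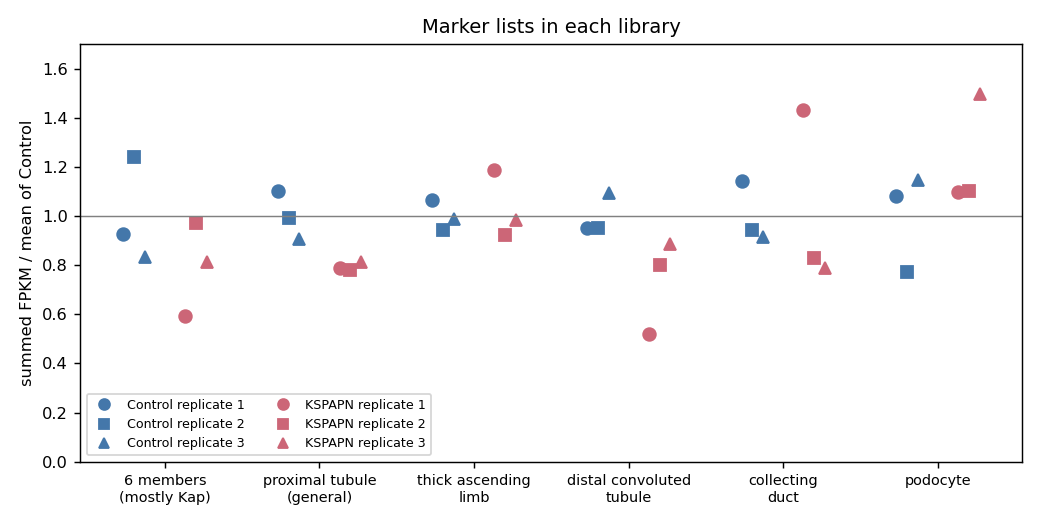
Summed FPKM of marker lists in each library, divided by the mean of the 3 Control libraries (vertical axis, linear from 0). General proximal tubule markers and distal convoluted tubule markers sit lower in all 3 KSPAPN libraries than in every Control library. The sum of the 6 genes is mostly *Kap* and overlaps between the groups. KSPAPN replicate 1, the red circle, is the lowest for the 6 genes and for the distal convoluted tubule. It is the highest for the collecting duct and the thick ascending limb.

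KSPAPN replicate 1 also stood apart in markers of other segments. Its summed collecting duct markers (5 genes) were at 697 FPKM, against 383 to 557 FPKM in the other 5 libraries, and this rested on *Aqp2*, the vasopressin-regulated water channel, at 537 FPKM against 227 to 356 FPKM. Its thick ascending limb markers (5 genes) were at 1231 FPKM against 958 to 1107 FPKM. Among these, *Slc12a1*, the sodium, potassium and chloride carrier of that segment, rose in KSPAPN as a group, from 195, 182 and 211 FPKM to 307, 278 and 252 FPKM (log2 fold change 0.52 ± 0.11, edgeR adjusted p = 0.0437), and the other 4 did not pass. Its distal convoluted tubule markers (2 genes) were at 57.3 FPKM, where the other KSPAPN libraries had 88.1 and 97.7 FPKM and Control 105 to 121 FPKM. The part of tissue composition in the levels of the 6 genes was not tested.

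General markers of the proximal tubule, of which *Slc34a1* and *Gatm* are also in the S1 and S2 list and *Ggt1* in the S3 list below, summed to 2874 to 3488 FPKM in Control and 2473 to 2578 FPKM in KSPAPN without overlap (7 genes, two-sided exact permutation p = 0.1, the smallest that 3 against 3 libraries allow). All 7 had negative log2 fold changes, with a median of -0.24, and 2 passed the test, *Ggt1* and *Miox*, the myo-inositol oxygenase (-0.60 ± 0.12, edgeR adjusted p = 0.0268). Of all genes tested 2.25% were called lower. *Lrp2*, the endocytic receptor megalin, was at -0.32 ± 0.15 (adjusted p = 0.270) and *Slc34a1*, the phosphate carrier, at -0.15 ± 0.13 (adjusted p = 0.582). Summed tubular injury markers were at 319 to 386 FPKM in Control and 315 to 403 FPKM in KSPAPN (exact permutation p = 0.8), and none of the 5 tested passed. This sum was mostly *Spp1*, the osteopontin gene, at 267 to 367 FPKM. *Havcr1*, the kidney injury molecule gene, had 99 counts in KSPAPN replicate 1 and 18 to 34 in the other 5 libraries, and *Lyz2*, a gene of myeloid cells, was at 18.0 FPKM there and at 7.22 to 11.5 FPKM elsewhere. The defining markers of adipocytes summed to at most 0.504 FPKM in any library, *Adipoq* not among them.

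Of the 19 other S3 genes listed, 16 had negative and 3 positive log2 fold changes, with a median of -0.52. By edgeR 4 were called lower and none higher, where 2.25% of all genes tested were called lower and 0.393% higher. An unadjusted p under 0.05 was found for 12, against 18.7% of all genes tested. In 10 every KSPAPN library lay below every Control library, against 13.1% of all genes tested. This list and those below were chosen with earlier results of these data known, so their counts are descriptions. *Slc22a7*, the organic anion transporter OAT2, fell from 254, 304 and 245 CPM in Control to 45.0, 90.0 and 116 CPM in KSPAPN, a log2 fold change of -1.68 ± 0.27 (adjusted p = 0.0136). *Slc22a13*, the urate and nicotinate carrier OAT10, fell from 74.0, 69.8 and 89.3 CPM to 35.9, 57.5 and 48.7 CPM (-0.72 ± 0.16, adjusted p = 0.0460). *Napsa*, an aspartic protease, fell from 1698, 1477 and 1361 CPM to 915, 1128 and 936 CPM (-0.61 ± 0.12, adjusted p = 0.0331), and *Ggt1* is given above. For these 4 genes, too, KSPAPN replicate 1 was the lowest KSPAPN library.

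Not every S3 gene had a negative value. *Slc5a1*, the high-affinity glucose carrier SGLT1, was at 82.0, 89.9 and 115 CPM in Control and 96.1, 101 and 129 CPM in KSPAPN (0.19 ± 0.15, adjusted p = 0.534). *Slc27a2*, a fatty acid carrier and ligase, was at -0.02 ± 0.13 (adjusted p = 0.959) and *Slc23a1*, the ascorbate carrier, at 0.01 ± 0.09 (adjusted p = 0.958). *Slc7a12*, a relative of *Slc7a13*, had the lowest value of the list, -2.19 ± 0.76 (adjusted p = 0.157), which rested on Control replicate 1 at 22.5 CPM, where the other Control libraries had 1.30 and 4.87 CPM and KSPAPN 1.75 to 2.34 CPM. These 4 were named after their values were seen.

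**Figure D3:**
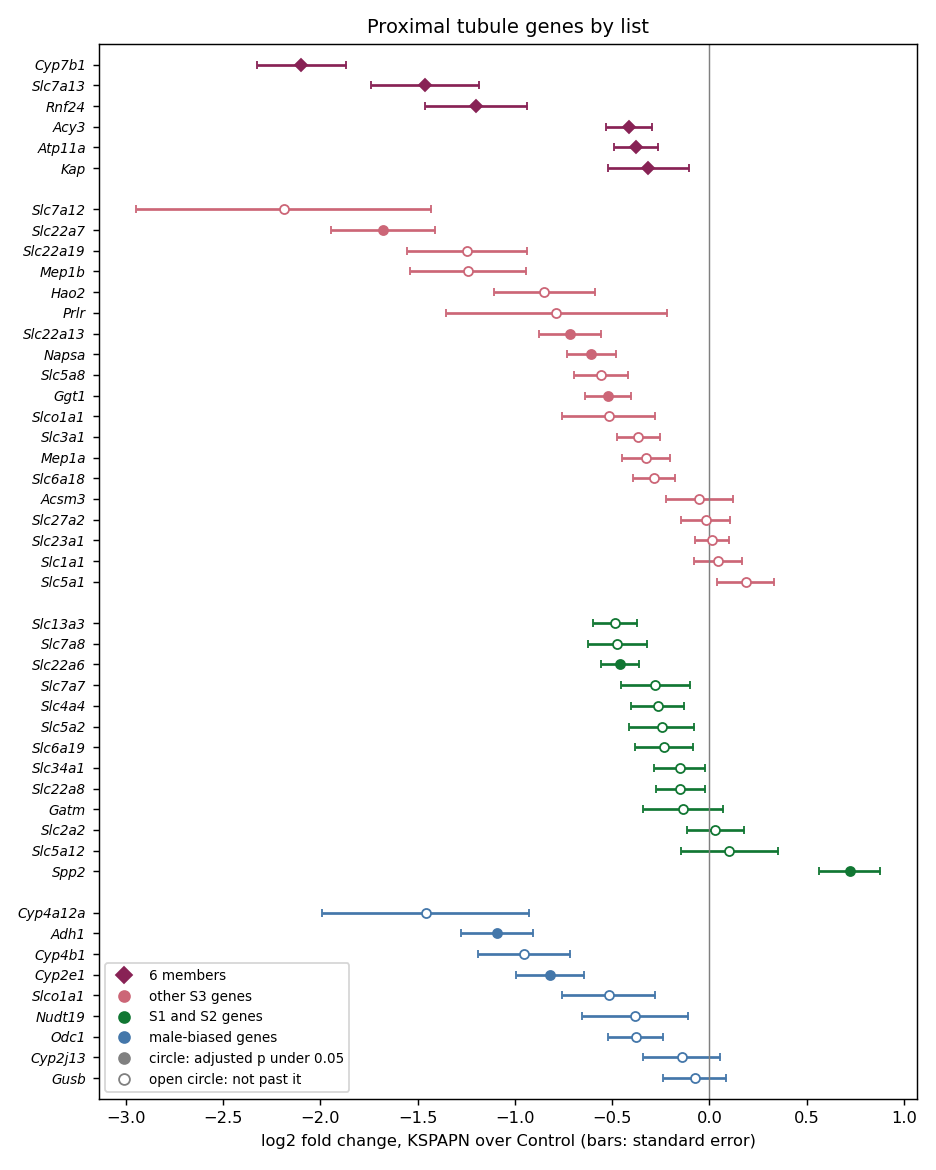
Log2 fold change of KSPAPN over Control (horizontal axis) with its standard error for the 6 genes (diamonds) and for the lists of other S3, S1 and S2, and male-biased genes (circles, filled where the edgeR adjusted p was under 0.05). Most S3 genes lie left of 0, the S1 and S2 genes lie closer to it, with *Spp2* at 0.72, and all 9 male-biased genes lie left of it.

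For the 13 genes of S1 and S2 the median was -0.23, with 10 negative values, and 1 gene was called in each direction. Among all genes tested 2.25% were called lower and 0.393% higher. *Slc22a6*, the organic anion transporter OAT1, fell from 1094, 1213 and 1068 CPM to 786, 812 and 853 CPM (-0.46 ± 0.10, adjusted p = 0.0388). *Spp2*, a secreted phosphoprotein, rose from 203, 185 and 271 CPM to 372, 299 and 414 CPM (0.72 ± 0.16, adjusted p = 0.0430). *Slc5a2*, the glucose carrier SGLT2 of early segments, was at -0.25 ± 0.17 (adjusted p = 0.462). The difference between the S3 list and the S1 and S2 list was not tested.

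The 9 male-biased genes are known to be higher in kidneys of male mice or induced by androgen there, and *Slco1a1* was also in the S3 list. All 9 had negative values, as had 48.1% of all genes tested, and their median was -0.52. By edgeR 2 were called lower, against 2.25% of all genes tested. In 4 of the 9 every KSPAPN library lay below every Control library, against 13.1% of all genes tested. *Adh1*, an alcohol dehydrogenase, fell from 418, 443 and 291 CPM to 148, 228 and 164 CPM (-1.09 ± 0.19, adjusted p = 0.0180). *Cyp2e1*, a cytochrome P450 of ethanol and ketone oxidation, fell from 1216, 1546 and 1025 CPM to 575, 867 and 701 CPM (-0.82 ± 0.18, adjusted p = 0.0399). *Hnf4a*, a factor that drives proximal tubule genes, was at 0.03 ± 0.11 (adjusted p = 0.905). Of the 19 partner genes listed, not all of them named here, 18 were tested, and their median was -0.25. By edgeR 4 were called lower (*Ggt1*, *Nat8*, *Acy1* and *Aspa*) and none higher, against 2.25% and 0.393% of all genes tested. An unadjusted p under 0.05 was found for 10, against 18.7% of all genes tested.

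The genes most like each member were taken as those with the highest Pearson r of log2 CPM over the 6 libraries, among genes with a mean of at least 1 FPKM. With 6 libraries such values are reached by many genes, since between 89 and 317 genes had an r above 0.95 with a member. They were *Ctsh* and *Sord* for *Slc7a13*, *Tmem8* and *Ttc27* for *Cyp7b1*, *Slc9a8* and *Gm3716* for *Rnf24*, *Prdx6* and *Mrps5* for *Acy3*, *Qprt* and *Gm21321* for *Atp11a*, and *Fam210a* and *Tmigd1* for *Kap*, with r between 0.991 and 0.998. The log2 fold changes of these 12 lay between -1.47 for *Gm21321*, a processed pseudogene, and -0.20 for *Ctsh*, a cathepsin.

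**Figure D4:**
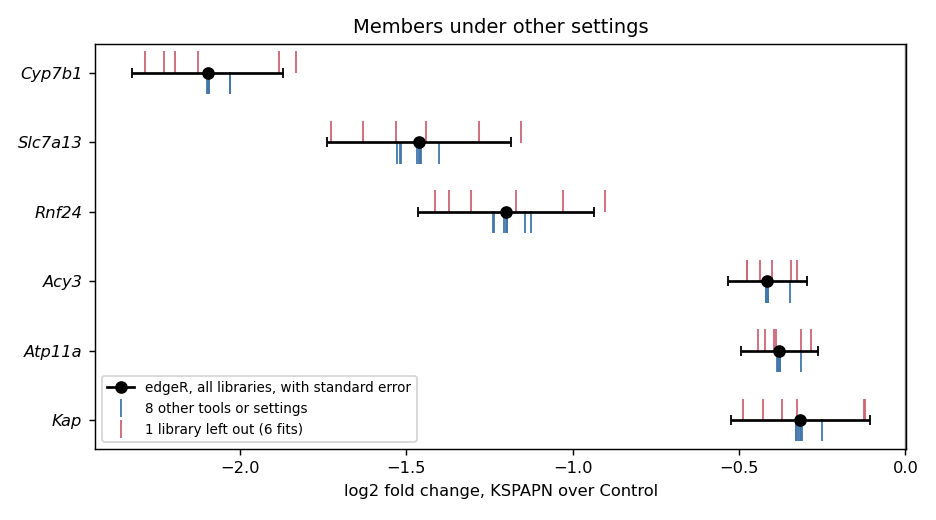
Log2 fold change of the 6 genes (horizontal axis) in the edgeR fit of all libraries with its standard error (black), under 8 other tools or settings (blue ticks) and with 1 library left out (red ticks). Every value is below 0, and for *Kap* the values range from -0.49 to -0.12.

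Under 14 other tools, settings and left-out libraries all 6 genes kept a negative value. *Cyp7b1* stayed between -2.28 and -1.83, *Slc7a13* between -1.73 and -1.16, *Rnf24* between -1.41 and -0.90, *Acy3* between -0.48 and -0.32, *Atp11a* between -0.44 and -0.28 and *Kap* between -0.49 and -0.12. Of all genes called, 14.9% were higher in the edgeR fit. Scaling by total counts only gave 26.7%, and left 2 of the 6 members, *Cyp7b1* and *Slc7a13*, past the threshold. Under the other alternatives the share ranged from 7.2%, without Control replicate 2, to 24.1%, with the replicate block.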

How the data were processed

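Poly(A) RNA from 6 pools of mouse kidneys, 3 per group, was sequenced. The authors deposited raw read counts per gene and FPKM, scaled by gene length and library size. The submitters' processing notes name STAR 2.5, TopHat, HTSeq 0.6.1, DESeq2 and edgeR, without their roles. For the genome build, the annotation and the strand setting, nothing was given in the sources used here. Of 54532 identifiers, 54495 matched GENCODE M21 (GRCm38).

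Counts were tested with edgeR 4.0.16 in R 4.3.3 (TMM factors, minimum count 10, minimum total 15, two-sided quasi-likelihood test, Benjamini-Hochberg adjustment over 16017 genes). CPM use TMM factors, and standard errors are the fold change over the square root of F. Levels between genes use FPKM. Groups follow the labels, which do not state the pooling. Counting error is small for well-counted genes at 17183358 to 20871173 counts per library and covers reads, not molecules. It is larger for genes with few counts, such as *Ch25h* with 8 to 24 counts per library. The test was run on simulated data in which every gene had the same dispersion. Spread that differs between genes or pools, as in these libraries, was not simulated, so this check does not cover it.

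The 6 genes and all lists were chosen with earlier results of these data known. Genes named are the 6, their partners other than some that are not reported here, list genes past the threshold, at most 6 in each direction, and the 2 most like each member, besides markers and 6 genes named after their values were seen (*Slc5a1*, *Slc27a2*, *Slc23a1*, *Slc7a12*, *Slc5a2* and *Pank2*). Alternatives were DESeq2 1.42.0, RLE factors, total counts only, factors without *Kap*, *Adipoq* and mitochondrial genes, no filter, limma 3.58.1 on log2(FPKM + 1) and log2(FPKM + 0.1), a replicate block, and each library left out. Reads were not used here.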

Additional observations from a re-analysis of the deposited data

How the results depend on the processing

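All 6 genes were negative in the edgeR fit and under all 14 alternatives. *Cyp7b1* passed the threshold under 14 of these, *Slc7a13* under 9, *Rnf24* under 6, *Acy3* under 3, *Atp11a* under 2 and *Kap* under 0. The edgeR fit called 361 genes lower and 63 higher, with 3 of the 6 members, 4 other S3 genes, 2 genes of S1 and S2 and 2 male-biased genes among them. DESeq2 called 744 lower and 181 higher, with 5 members and 4 genes of S1 and S2. RLE factors left 2 other S3 genes, and total counts only left 195 genes lower, 2 other S3 genes and 0 of S1 and S2. Without a filter on low counts 1038 genes were lower and 301 higher, with 5 members, 13 other S3, 4 S1 and S2 and 7 male-biased genes. In that fit the prior degrees of freedom were infinite, against 6.40 with the filter, so that all genes shared the spread of the trend. limma on log2(FPKM + 1) and on log2(FPKM + 0.1) called 118 and 109 genes lower and 10 higher in both, with 1 member, *Cyp7b1*, and 0 genes of the 3 lists. With the replicate block 705 were lower and 224 higher, with 7 other S3 and 4 male-biased genes, and 3 members were called, *Acy3* in place of *Rnf24*. Same-numbered libraries deviated together with r of 0.051, 0.137 and 0.167, and each correlated best with its own number, but the labels give no shared litter or batch, so the numbers were not taken as pairs. The cause of these differences was otherwise not tested.

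With 1 library left out, 34 to 571 genes were lower and 5 to 162 higher, and 1 to 3 members, 0 to 6 other S3, 0 to 2 S1 and S2 and 0 to 4 male-biased genes were called. Only *Cyp7b1* was called among the members without Control replicate 1 (34 lower, 5 higher), Control replicate 2 (116 lower, 9 higher) or KSPAPN replicate 3 (60 lower, 5 higher). Without KSPAPN replicate 2 there were 243 lower and 33 higher and 2 members, and without KSPAPN replicate 1 571 lower and 162 higher and 3 members. Without Control replicate 3 there were 271 lower and 39 higher. Leaving out a library left 2 against 3 libraries.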
